A study of Homo sapiens with 4 samples.

Results

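MHC class I antigen presentation was followed through 9 genes, taken by name from the 58302 genes listed: the heavy chain genes HLA-B, HLA-C and HLA-E, the light chain gene B2M, the peptide transport, loading and trimming genes TAP1, TAP2, TAPBP and ERAP1, and the transactivator gene NLRC5. All 9 had enough reads to test. RNA-seq was performed on MIB1-iKO cells, that is, the NSCLC (non-small-cell lung cancer) line NCI-H838, into which a guide RNA against MIB1, a puromycin resistance gene and a Cas9 gene switched on by doxycycline (dox) had been integrated with a piggyBac transposon. The study's methods describe MIB1-iKO lines as single-cell clones, and the labels do not say which clone or guide was sequenced. At day 3, 2 samples had received no dox and 2 had received dox, at 0.5 μg/mL. Every sample carried the same constructs, and none received dox without a guide against MIB1, so an effect of dox or of Cas9 cutting cannot be told apart from one of MIB1 loss. The study calls its replicates biological, but the labels do not say whether they were separate cultures, so p-values measure only the spread between these samples.

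A class I molecule is a heavy chain that spans the membrane, paired with beta-2-microglobulin and holding a short peptide that is shown to CD8 T cells. Proteasomes cut the peptides in the cytosol, the TAP1-TAP2 transporter moves them into the endoplasmic reticulum, ERAP1 trims them, and tapasin, the product of TAPBP, holds empty class I molecules beside the transporter while peptide is loaded. NLRC5 is the transactivator that works with RFX, CREB and NF-Y factors at class I promoters, and interferons and NF-κB add to it. Lung cancers are known to lose parts of this pathway.

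Promoter sequences are given first for 5 of the genes, because shared promoter elements are what class I genes are best known to have in common. A RefSeq promoter window (GRCh38.p14) was found for 7 of the 9 genes, and HLA-E and NLRC5 had none in the table used. TAP1 and ERAP1 had 2 windows each, and the TAP1 window printed is the more upstream. The 200 bases before the annotated start are printed 5′ to 3′ on the gene's strand. Capitals mark, on either strand, CCAAT (the NF-Y box), TGACG (the core of the X2 box, bound by CREB factors) and the consensus letters of an NF-κB-like site and of an interferon-stimulated response element, which may overlap one another.
HLA-B, chr6:31357180-31357379, minus strand: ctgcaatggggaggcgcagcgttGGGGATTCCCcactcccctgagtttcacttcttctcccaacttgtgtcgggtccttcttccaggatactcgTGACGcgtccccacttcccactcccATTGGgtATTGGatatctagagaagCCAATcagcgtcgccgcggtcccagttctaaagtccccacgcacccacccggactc
HLA-C, chr6:31272093-31272292, minus strand: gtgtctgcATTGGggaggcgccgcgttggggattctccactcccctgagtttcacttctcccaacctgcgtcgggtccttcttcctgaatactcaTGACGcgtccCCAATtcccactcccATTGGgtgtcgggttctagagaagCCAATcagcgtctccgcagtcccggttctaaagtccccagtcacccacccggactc
B2M, chr15:44711317-44711516, plus strand: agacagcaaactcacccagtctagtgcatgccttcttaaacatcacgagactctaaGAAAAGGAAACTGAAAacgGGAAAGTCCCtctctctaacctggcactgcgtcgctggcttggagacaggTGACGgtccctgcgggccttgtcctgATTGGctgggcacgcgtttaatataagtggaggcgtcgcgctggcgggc
TAP1, chr6:32853705-32853904, minus strand: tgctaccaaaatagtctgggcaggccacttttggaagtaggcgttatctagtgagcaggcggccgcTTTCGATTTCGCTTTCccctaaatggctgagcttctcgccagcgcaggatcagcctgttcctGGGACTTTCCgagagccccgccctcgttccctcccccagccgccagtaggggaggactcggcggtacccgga
TAPBP, chr6:33314079-33314278, minus strand: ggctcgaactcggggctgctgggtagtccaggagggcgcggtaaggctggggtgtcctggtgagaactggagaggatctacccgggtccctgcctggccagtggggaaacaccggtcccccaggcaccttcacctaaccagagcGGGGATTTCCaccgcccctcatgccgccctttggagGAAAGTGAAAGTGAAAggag

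HLA-B, HLA-C and B2M each held TGACG followed by ATTGG, the inverted CCAAT, at a distance of 20, 20 and 21 bases. This pair, with 10 to 30 bases between, was present in 0.365% of the 35116 promoter windows of 250 bases, and in none of the windows of TAP1, TAP2, TAPBP and ERAP1. The NF-κB-like letters stood in HLA-B, B2M, TAP1, TAPBP and ERAP1, and in 5.07% of all windows. The response element letters stood in B2M, TAP1, TAP2 and TAPBP, and in 3.02% of all windows. In TAP1 and ERAP1 every match stood in the same window, and the other window held none of the letters searched. HLA-B and HLA-C were identical at 89.0% of aligned positions over 250 bases, yet HLA-C lacked the NF-κB-like letters. GGCGCC, letters to which SMAD proteins of the BMP branch can bind, stood in HLA-C and B2M and in 16.4% of all windows. A match describes letters of the reference sequence and not a bound site, and the sequence of these cells was not read. Sites that depart from the letters searched are missed, so a gene without a match, such as HLA-B or HLA-C for the response element, may still hold one.

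The libraries held between 15943025 and 24398411 reads, fewer in both dox libraries. MIB1, the targeted gene, had 598 and 588 reads in the pair of no dox libraries against 90 and 59 in the dox libraries, a log2 FC (log2 fold change of dox over no dox) of -2.58 ± 0.23 (SE; limma, adjusted p = 0.000375), so each library stood on the side of its label. With any 1 library left out it lay between -3.00 and -2.16 and was no longer called. Of the 5 epithelial markers, EPCAM, CDH1, KRT8 and KRT18 were present, and KRT19 was listed at 0 in every library. The summed level of the 5 lay between 82.9 and 91.5 RPKM (reads scaled to library size and to gene length) without dox. With dox it lay between 67.1 and 72.2 RPKM, and the part of this in the results was not tested. In RPKM, KRT8 and KRT18 were lower in both dox libraries, whereas EPCAM and CDH1 were higher in both. With reads scaled to the library total only, the EPCAM and CDH1 groups overlapped. Of the 7 immune cell markers, 5 had at most 5 reads in any library, PTPRC, NKG7 and CD68 being at 0 throughout, and the summed level lay between 4.66 and 5.18 RPKM over the 4 libraries, most of it CD14. Of the 5 fibroblast markers, 3 had at most 5 reads in any library, and the summed level was between 0.261 and 0.700 RPKM.

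The class I genes spanned a wide range of levels. B2M was by far the highest, at 2543.9 ± 462 RPKM (SD, n = 2) without dox and 2726 ± 665 RPKM (SD, n = 2) with dox. By reads it had rank 3 in all libraries but one and rank 1 in dox replicate 1, and took between 0.547% and 0.730% of all reads. TAPBP followed at 28.5 ± 2.55 RPKM (SD, n = 2) without dox, then HLA-E at 16.5 ± 0.445, HLA-C at 10.4 ± 0.202, TAP1 at 8.83 ± 1.29 and HLA-B at 6.85 ± 0.521 RPKM (SD, n = 2 each). NLRC5 stood at 1.79 ± 0.0668, ERAP1 at 1.61 ± 0.299 and TAP2 at 0.370 ± 0.0420 RPKM (SD, n = 2 each). Neighbours in this order did not overlap between libraries without dox, apart from NLRC5 and ERAP1. With dox the order was kept except that HLA-B and TAP1 changed places, and these 2 overlapped, as did NLRC5 and ERAP1.

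**Figure D1:**
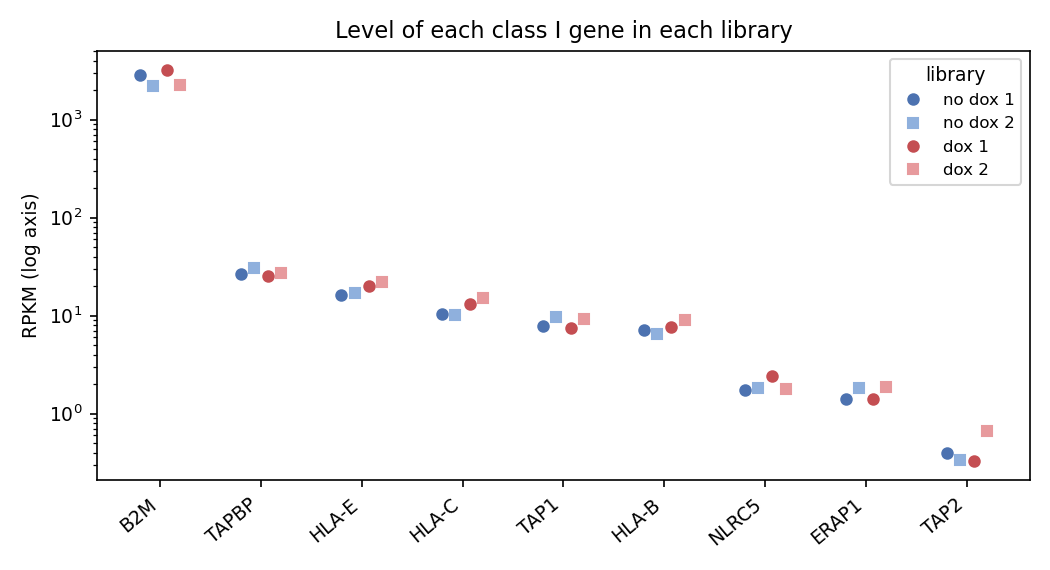
RPKM of each class I gene in each of the 4 libraries, on a log axis, with genes ordered by their mean without dox (blue, no dox; red, dox; circles, replicate 1; squares, replicate 2). B2M, from 2218 to 3196 RPKM, lies far above the others, and TAP2, from 0.329 to 0.670 RPKM, below them.

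The summed heavy chain level was 33.9 and 33.6 RPKM without dox and 41.0 and 46.4 RPKM with dox, and the B2M level was 84.5, 66.1, 78.0 and 48.6 times as high in no dox replicates 1 and 2 and dox replicates 1 and 2. The part of lost or misplaced HLA reads in this gap was not tested. HLA genes are highly polymorphic paralogs, and the alignment allowed 2 mismatches in 50 bases. Of the 50-base windows of the annotated transcripts, 42.3% in HLA-B, 5.79% in HLA-C and 5.19% in HLA-E also occur in transcripts of other genes. The share was 21.8% in TAPBP, 18.5% in TAP2, 12.8% in TAP1 and 7.72% in ERAP1. HLA-B thus had the highest share, while HLA-C and HLA-E had lower ones than these genes. In B2M the share was 0 of 3319 and in NLRC5 0 of 13179. Matches on either strand count, also those in genes that overlap on the genome. Only exact matches count, so windows that differ within the 2 mismatches allowed are missed. In addition, GRCh38 carries 16 alternate sequences of chromosome 6, on which 74.8% of the HLA-B windows within exons, 91.2% of those of HLA-C and 100% of those of HLA-E, TAP1 and TAPBP occur again. The sources used here do not say whether these alternate sequences were in the authors' index. Levels of the class I genes of chromosome 6 are therefore uncertain.

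Comparing the dox with the no dox libraries addresses how class I transcripts stand once MIB1 is disrupted. None of the 9 genes met both criteria of a call, an adjusted p no higher than 0.05 and 2-fold or more in either direction (limma), where 0.0371% of the 16181 genes tested did. On the adjusted p alone the number was also 0 of 9, against 0.0680%. With edgeR and DESeq2 the number was also 0. At an unadjusted p under 0.05 there were 2 of the 9, HLA-C and HLA-E, both higher with dox, where 4.68% of all genes tested were on that side. The log2 FC was above 0 in 7 of the 9 genes, against 49.9% of all genes tested, and below 0 in TAP1 and TAPBP, and the median was 0.25 beside -0.00042 over all genes tested. The groups did not overlap in CPM (reads scaled to the library total) in 4 of the 9 genes, HLA-B, HLA-C, HLA-E and NLRC5, each higher with dox, against 19.0% of all genes tested. In bulk samples, fewer cells expressing a gene and less RNA per cell cannot be told apart.

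**Figure D2:**
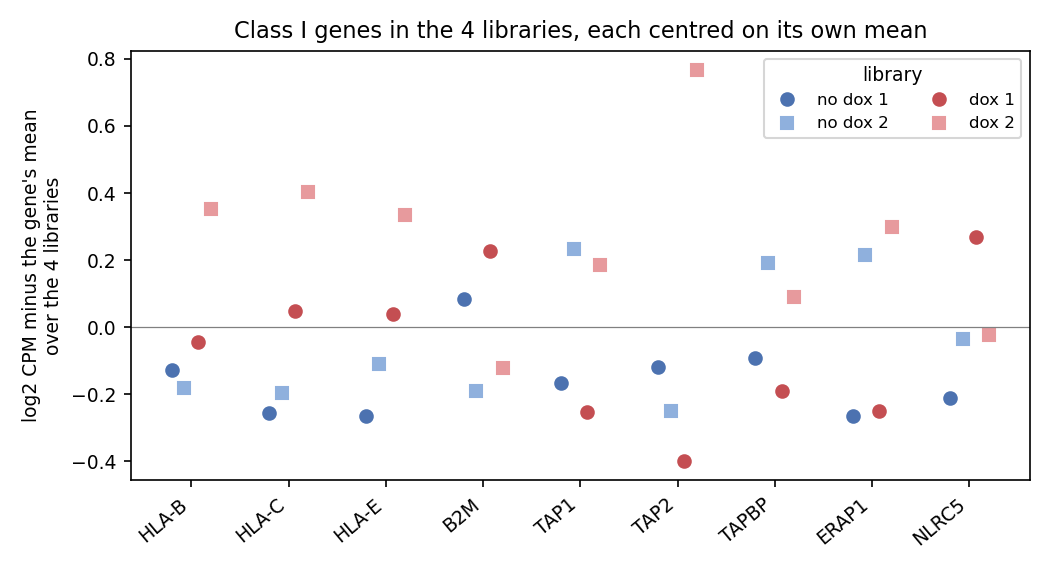
log2 CPM of each class I gene in each library, minus the gene's mean over the 4 libraries (blue, no dox; red, dox; circles, replicate 1; squares, replicate 2). For HLA-B, HLA-C and HLA-E both red points lie above both blue points, whereas TAP1, TAPBP and ERAP1 differ more between replicate numbers than between groups.

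All 3 heavy chain genes stood higher in both dox libraries than in either no dox library, and none passed the test. HLA-B (ENSG00000234745, chromosome 6, 31353872 to 31367067, minus strand, GRCh38 as in GENCODE for this and all other genes), one of the classical genes that present peptides to CD8 T cells, had 269 and 225 reads in the pair of no dox libraries against 186 and 262 in the dox libraries. Per length this was 7.22 and 6.48 RPKM without dox and 7.69 and 9.11 RPKM with dox. Both dox libraries lay above both no dox libraries, replicate 1 by a small margin. HLA-B had a log2 FC of 0.32 ± 0.18 (SE; limma, adjusted p = 0.622), with a 95% interval from -0.06 to 0.70. Other annotated genes overlap it on both strands.

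HLA-C (ENSG00000204525, chromosome 6, 31268749 to 31272130) encodes the other classical heavy chain measured here, which is also a main ligand of killer-cell immunoglobulin-like receptors. It had 384 and 348 reads in the pair of no dox libraries against 310 and 424 in the dox libraries, which is 10.5 and 10.2 RPKM against 13.1 and 15.1 RPKM. The groups did not overlap, and the gap between them was wider than for HLA-B. The resulting log2 FC was 0.46 ± 0.15 (SE; limma, adjusted p = 0.362), with a 95% interval from 0.13 to 0.79, the highest among the 9 genes.

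HLA-E (ENSG00000204592, chromosome 6, 30489509 to 30494194) encodes a nonclassical heavy chain that mostly presents leader peptides of other class I chains to the NKG2A receptor of natural killer cells. It had 991 and 959 reads in the pair of no dox libraries against 800 and 1049 in the dox libraries, which is 16.2 and 16.8 RPKM against 20.2 and 22.2 RPKM. Again both dox libraries were higher. For HLA-E the log2 FC was 0.39 ± 0.13 (SE; limma, adjusted p = 0.350), with a 95% interval from 0.12 to 0.66. With any 1 library left out, the 3 heavy chain genes kept values above 0, the lowest being 0.19, 0.35 and 0.31 for HLA-B, HLA-C and HLA-E, each without dox replicate 2.

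Because the counting could split reads between these paralogs, their reads were also summed into 1 feature. The sum was 1644 and 1532 reads in the pair of no dox libraries against 1296 and 1735 in the dox libraries. Its log2 FC was 0.41 ± 0.12 (SE; limma, adjusted p = 0.305), a 1.33-fold difference that did not pass the test. With HLA-F, HLA-G and 5 class I pseudogenes added the log2 FC was 0.39 (limma, adjusted p = 0.332). HLA-H, a pseudogene of the same family whose reads are uncertain for that reason, had 220 and 214 reads in the pair of no dox libraries against 161 and 221 in the dox libraries, a log2 FC of 0.27 ± 0.18 (SE; limma, adjusted p = 0.692).

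B2M (ENSG00000166710, chromosome 15, 44711358 to 44718851), the gene of the light chain, was covered by 161053 and 115909 reads in the no dox samples, and by 116342 and 97624 reads in the dox samples. Its level in RPKM was 2870.3 and 2218 without dox and 3196 and 2255 with dox. The groups overlapped, and replicate 1 was higher than replicate 2 in both. B2M had a log2 FC of 0.20 ± 0.10 (SE; limma, adjusted p = 0.593). This value rests on the normalization: quantiles give genes of the same rank the same value, and B2M had the same rank in 3 libraries, so that without dox replicate 1 the log2 FC was 0. It was 0.35 without dox replicate 2. In all 4 libraries, with voom on library size only or with TMM, it was 0.10, and on the log2(RPKM + 1) scale it was 0.09.

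The genes of peptide transport, loading and trimming showed no common direction, and the groups overlapped in all 4. TAP1 (ENSG00000168394, chromosome 6, 32845209 to 32853816), which encodes one half-transporter, had 551 and 631 reads in the pair of no dox libraries against 339 and 491 in the dox libraries. At 7.92 and 9.74 RPKM without dox and 7.52 and 9.15 RPKM with dox, replicate 2 was higher than replicate 1 in both groups. TAP1 had a log2 FC of -0.06 ± 0.16 (SE; limma, adjusted p = 0.946), with a 95% interval from -0.39 to 0.28.

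TAP2 (ENSG00000204267, chromosome 6, 32821833 to 32838739), the partner half-transporter, rested on 58 and 46 reads in the pair of no dox libraries against 31 and 75 in the dox libraries. Dox replicate 2 alone stood above the other libraries, at 0.670 RPKM against 0.400, 0.340 and 0.329. The log2 FC of 0.33 ± 0.35 (SE; limma, adjusted p = 0.826) became -0.22 without that library, and 0.85 without dox replicate 1. Its 95% interval, from -0.42 to 1.07, was the only one of the 9 to reach a 2-fold change. A readthrough gene on the same strand overlaps TAP2.

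TAPBP (ENSG00000231925, chromosome 6, 33299694 to 33314284), the tapasin gene, stood at 26.7 and 30.3 RPKM without dox and 25.2 and 27.5 RPKM with dox, on 1609 to 2785 reads. Its log2 FC was -0.09 ± 0.12 (SE; limma, adjusted p = 0.880). ERAP1 (ENSG00000164307, chromosome 5, 96760810 to 96808100), the trimming aminopeptidase gene, stood at 1.40 and 1.82 RPKM without dox and 1.42 and 1.87 RPKM with dox. In this gene the replicates with the same number lay closer together than the replicates of 1 group. Its log2 FC was 0.08 ± 0.20 (SE; limma, adjusted p = 0.938). TAP1 and TAPBP turned to values above 0 without no dox replicate 2 or dox replicate 1, at most 0.09 and 0.03. ERAP1 turned to values below 0 without no dox replicate 1 or dox replicate 2, at lowest -0.12.

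NLRC5 (ENSG00000140853, chromosome 16, 56989485 to 57083531) had 279 and 274 reads in the pair of no dox libraries against 254 and 222 in the dox libraries. In CPM it was 11.4 and 12.9 without dox and 15.9 and 13.0 with dox, so that only dox replicate 1 stood apart. In RPKM, where the authors' scaling per library differs from the total count, the groups overlapped, at 1.74 and 1.83 against 2.44 and 1.80. For NLRC5 the log2 FC was 0.25 ± 0.18 (SE; limma, adjusted p = 0.718), and it was 0.03 without dox replicate 1 and 0.48 without dox replicate 2. NLRC5 was highest in dox replicate 1, and the heavy chain genes were highest in dox replicate 2. Whether their levels are linked was not tested.

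**Figure D3:**
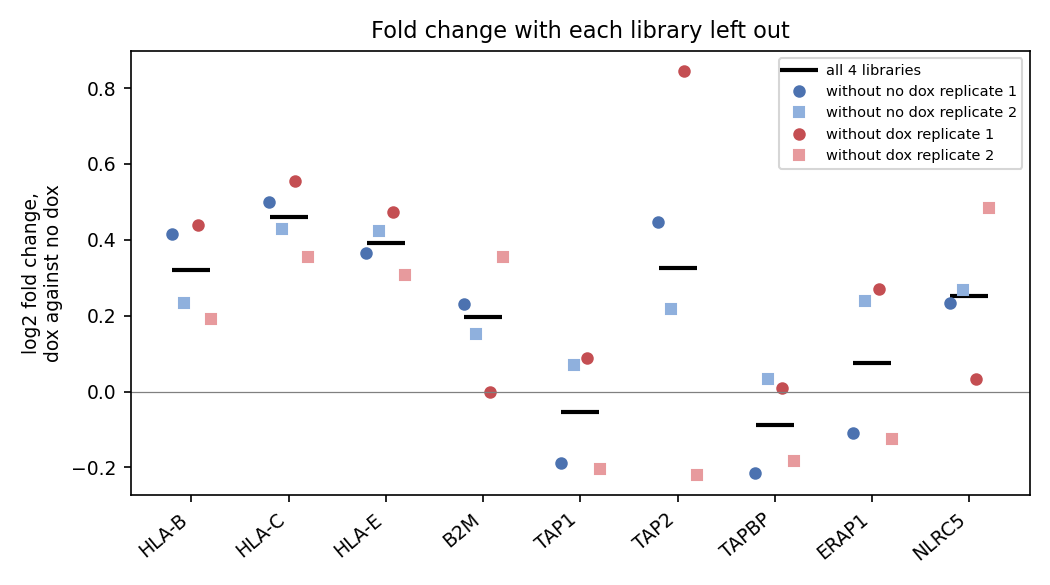
log2 FC of dox against no dox for each class I gene in all 4 libraries (black bar) and with each library left out (points). HLA-B, HLA-C, HLA-E and NLRC5 stay above 0, TAP1, TAP2, TAPBP and ERAP1 lie on both sides of 0, and B2M reaches 0 without dox replicate 1.

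The rest of the pathway was followed through 9 lists holding 81 genes. The immunoproteasome and its activator had 6 genes tested, of which 0 were called. The log2 FC was above 0 in 5 of them, against 49.9% of all genes tested. An unadjusted p under 0.05 was reached by 4, against 9.28% of all genes (limma). Of these, PSMB9, PSMB8 and PSME1 were higher with dox and PSME3 was lower. PSMB9, which encodes the interferon-inducible subunit that replaces PSMB6, stood at 49.6 and 48.1 RPKM without dox and 75.4 and 65.1 RPKM with dox. The groups were well apart, and the log2 FC was 0.56 ± 0.12 (SE; limma, adjusted p = 0.167). PSMB8, the inducible counterpart of PSMB5, stood at 41.5 and 37.8 RPKM without dox and 55.4 and 47.8 RPKM with dox, a log2 FC of 0.41 ± 0.12 (SE; limma, adjusted p = 0.311). PSME3, the nuclear activator gene, was on the other side, at 36.9 and 37.3 RPKM without dox and 32.2 and 28.5 RPKM with dox, a log2 FC of -0.28 (limma, adjusted p = 0.449). PSME2 had 0.07 (limma, adjusted p = 0.920).

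The constitutive subunits had log2 FCs of 0.09 (PSMB5), -0.09 (PSMB6) and -0.08 (PSMB7), none called, with a lowest adjusted p of 0.829 (limma). PSMB9 and TAP1 are transcribed away from each other. Their RefSeq starts are 488 bases apart, counted from the more upstream of the 2 TAP1 starts. The ratio of PSMB9 to TAP1 in RPKM was 6.26 and 4.93 without dox and 10.04 and 7.11 with dox, so both dox libraries were above both no dox libraries. The difference between the genes was not tested. A PSMB9 gene model also overlaps TAP1 on the opposite strand, and whether strand was used in counting is not stated.

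**Figure D4:**
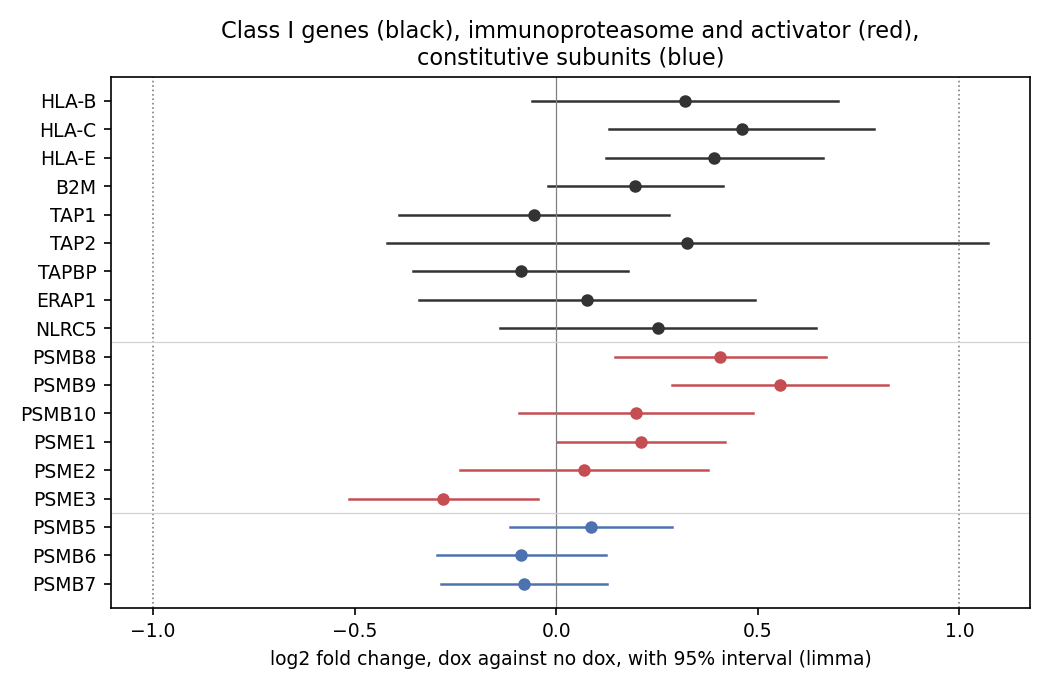
log2 FC of dox against no dox (points) with its 95% interval (lines, limma) for the class I genes (black), the immunoproteasome and activator genes (red) and the constitutive subunits (blue); dotted lines mark 2-fold. PSMB9 has the highest value, 0.56, and TAP2 the widest interval.

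Among class I-like genes, 6 of 8 were tested, none was called, and 2, FCGRT and MR1, had an unadjusted p under 0.05, against 9.28% of all genes (limma). FCGRT, which encodes the neonatal Fc receptor, stood at 13.9 and 14.7 RPKM without dox and 18.1 and 18.8 RPKM with dox, a log2 FC of 0.41 ± 0.13 (SE; limma, adjusted p = 0.350). MR1, whose product shows microbial vitamin B metabolites to MAIT cells, stood at 9.61 and 8.28 RPKM without dox and 11.99 and 10.7 RPKM with dox, a log2 FC of 0.38 ± 0.12 (SE; limma, adjusted p = 0.351). Both pair with B2M, and in both the groups did not overlap in CPM, as in 19.0% of all genes on that side. HFE, which also pairs with B2M and limits iron uptake, had 0.05 with overlapping groups (limma, adjusted p = 0.954), and HLA-F, a nonclassical heavy chain gene with 6 to 14 reads in a library, had 0.02 (limma, adjusted p = 0.996). MICA and MICB, ligands of the NKG2D receptor that do not pair with B2M, had 0.05 and -0.05 (limma, adjusted p of 0.929 and 0.945). The groups overlapped in MICB, and in MICA they did not overlap in CPM but did in RPKM.

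Lumenal chaperones and trimming enzymes lay on both sides of 0, 3 of 6 above it, and none was called (lowest adjusted p 0.694, limma). The lowest value was that of CANX, the calnexin gene that assists new heavy chains, at 159 and 161 RPKM without dox and 139 and 141 RPKM with dox, a log2 FC of -0.17, which was -0.02 without dox replicate 1 and -0.31 without dox replicate 2. LNPEP (-0.07), TAPBPL (0.14) and ERAP2 (0.16) had adjusted p-values of 0.885 or more (limma), and TAPBPL was -0.12 without dox replicate 2.

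Regulators of class I transcription were divided evenly, 7 of 14 tested above 0, and none was called (lowest adjusted p 0.470, limma). NFYA, an NF-Y subunit gene, had 0.33 and IRF2, an interferon regulatory factor gene, also 0.33, while RFX5 and RFXANK, which encode subunits of the RFX complex, had -0.17 and -0.16. The value of NFYA was 0.07 without no dox replicate 1 and 0.58 without no dox replicate 2, and that of RFX5 was -0.04 without dox replicate 1 and -0.31 without dox replicate 2. Interferon and TNF receptors and kinases had a median log2 FC of 0.04, from JAK1 (-0.02) and TNFRSF1A (0.0062) to IFNAR1 (0.13) and TYK2 (0.21). None of these 8 was called, and the lowest adjusted p was 0.669 (limma). The direction of TNFRSF1A turned with the scaling, for example to -0.012 with TMM.

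Most class II genes were nearly silent. Of 10, 4 were tested and none was called (limma), and the 6 not tested had at most 2 reads in any library, among them the transactivator gene CIITA and HLA-DRA. HLA-DMA, a peptide-exchange gene of the class II pathway, was present at 13.7 and 13.4 RPKM without dox and 12.7 and 13.5 RPKM with dox, a log2 FC of -0.02 (limma, adjusted p = 0.986). The median of the 4 tested was 0.37. Apart from HLA-DMA these had few reads, in a library 22 to 32 for CD74 and 10 to 13 for HLA-DMB. HLA-DRB1, the beta chain gene of HLA-DR, had the highest value, 0.98 ± 0.42 (SE; limma, adjusted p = 0.500), on 16 reads in each no dox library against 29 and 21 in the dox libraries. Its groups did not overlap in CPM, as in 19.0% of all genes on that side. Of 20 genes of other function in the same region of chromosome 6, 13 were above 0, none was called, and the median was 0.09 (lowest adjusted p 0.407, limma). They ranged from PPP1R10 (-0.39) and TUBB (-0.21) to AGPAT1 (0.32) and RING1 (0.54). RING1 was 0.30 when no dox replicate 2 was left out and 0.81 when no dox replicate 1 was. TUBB lay between -0.03 without no dox replicate 2 and -0.39 without no dox replicate 1, and PPP1R10 was -0.25 without dox replicate 1.

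The genes whose log2 CPM, centred on its mean, lay closest to the median profile of the 9 class I genes were EIF4A1P10, SPOP, ECSIT, CERS5 and EMC2, among 12269 genes outside the lists. Their Euclidean distances over the 4 libraries were 0.0213, 0.0305, 0.0306, 0.0348 and 0.0370. The median profile stood at -0.17 and -0.11 in the no dox libraries and at -0.04 and 0.30 in the dox libraries, so it was set mainly by dox replicate 2. With 4 points a close match is a description only.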

How the data were processed

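RNA-seq was analysed from a gene-level table of the 4 samples (2 no dox, 2 dox). Per the study's methods, the authors removed ribosomal reads, aligned 50-base reads to GRCh38 with GSNAP, allowing 2 mismatches, and counted reads over exons with HTSeqGenie. The deposited counts were raw reads per gene. The deposited RPKM values carried a further scaling per library, and were used for levels only. The labels name a low-input kit that keeps no strand and a stranded one, and do not tie either to these samples. Whether counting used strand is not given in the sources used here. Ensembl identifiers were given symbols from GENCODE release 44 (57532 of 58302 matched). The 770 without a symbol took between 1.06% and 1.15% of reads.

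Counts were filtered with filterByExpr, scaled by library total, quantile normalized, weighted with voom and fitted with limma 3.58.1 (R 4.3.3, two-sided, Benjamini-Hochberg over all 16181 genes tested), with no covariate. Calls needed an adjusted p of at most 0.05 and at least 2-fold. With 2 samples against 2, an exact permutation test cannot go below 0.333, so none was used. Alternatives were edgeR 4.0.16, DESeq2 1.42.0, other normalizations, filters, log2(RPKM + pseudocount) scales, a replicate term and each library left out. The 9 genes and the wider lists were chosen with earlier results of these data known. From each list the text names any gene called and, among genes averaging 50 reads or more, the 2 highest and 2 lowest log2 fold changes (all in lists of 5 or fewer), and also the 5 genes closest to the median profile. HFE, HLA-F, PSME1, HLA-DRB1, CD74, HLA-DMB, CIITA, HLA-DRA and, in the closing section, NFKB1 and FLOT1 were named after their values were seen. Promoter letters were searched in RefSeq windows (GRCh38.p14).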

Additional observations from a re-analysis of the deposited data

How the results depend on the processing

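None of the 9 class I genes was called under any alternative run. Their median log2 fold change stayed above 0, from 0.12 on the log2(RPKM + 1) scale to 0.27, and from 0.19 to 0.27 with 1 library left out. The summed heavy chain feature kept its direction throughout, from 0.30 to 0.52 with 1 library left out. Over all genes, the 6 calls became 0 with no count filter, 0 on the log2(RPKM + 0.1) scale, 0 on the log2(RPKM + 1) scale, 0 to 0 with 1 library left out and 11 with no fold threshold. The cause was not tested, except that leaving out a library leaves 3 samples. MIB1 was not called with no count filter (adjusted p = 0.613, limma) or on the RPKM scales (0.108 and 0.0962), and its log2 fold change lay between -3.00 and -2.16 with 1 library left out.

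Replicate numbers recur in both groups, though nothing in the labels gives their meaning. Deviations of same-numbered libraries from their group means correlated at r = 0.134 over 16181 genes. With the replicate number as a block, 78 genes were called, none of them among the 9. At an adjusted p of at most 0.05 with no fold threshold, the block gave B2M (0.000152), HLA-C (0.0147) and HLA-E (0.00184), where 7.13% of all genes passed (limma), and the summed heavy chains had an adjusted p of 0.000134. The block run kept the quantile normalization on which the B2M value rests, and the B2M groups overlapped in CPM. Genes of the wider lists that passed in the same way included PSMB9 (2.59e-06), PSMB8 (0.000223), PSME1, PSME3, MR1, FCGRT, CANX, NFKB1, FLOT1, TUBB and RING1 (0.0299), and of the epithelial markers KRT8 and KRT18.

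Among the genes named by rule, 12 took both signs with 1 library left out. The log2 fold change ran from -0.21 to 0.088 for TAP1, -0.22 to 0.85 for TAP2, -0.22 to 0.034 for TAPBP, -0.12 to 0.27 for ERAP1, -0.17 to 0.077 for MICB and -0.013 to 0.12 for MICA. It ran from -0.12 to 0.40 for TAPBPL, -0.14 to 0.29 for PSME2, -0.25 to 0.19 for JAK1, -0.076 to 0.090 for TNFRSF1A, -0.079 to 0.038 for HLA-DMA and -1.45 to 0.29 for COL1A1, a fibroblast marker. TNFRSF1A also turned with edgeR (-0.016), DESeq2 (-0.010), voom with TMM (-0.012), log2(RPKM + 0.1) (-0.020) and log2(RPKM + 1) (-0.019). Depth limits TAP2 most, with 31 to 75 reads in a library.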
